A study of Mus musculus with 2 samples.

Results

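The ADP-ribosylation genes Parp9, Parp10, Parp11, Parp12, Parp14 and Dtx3l, were followed in mouse soft-tissue sarcoma cells silenced for circCsnk1g3. They were selected by name as interferon-inducible poly(ADP-ribose) polymerase (PARP) genes, with the partner ubiquitin ligase of Parp9. The list need not hold every interferon-inducible PARP gene. All 6 were found among the 25509 gene rows of the deposited count table. The cells were C57BL/6 mesenchymal stem cells without p53 that overexpressed Ccne1 from a retroviral vector, had grown as tumors in recipient mice, and were taken back from sarcoma foci in the lung before transduction. The study sequenced 1 library of cells carrying a lentiviral hairpin against the backsplice junction of circCsnk1g3 (shcircCsnk1g3) and 1 library of cells carrying the control hairpin (shCTR). Both hairpins were delivered into the same p53-/-Ccne1+ background. The comparison asks which transcripts differed once the circular RNA was silenced. With 1 library per condition there was no replicate check and no test between conditions. Changes of the members, and of most other genes described, are therefore given with an exact 95% Clopper-Pearson interval for its count ratio, which compares these libraries and covers counting error only.

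PARP enzymes take ADP-ribose from NAD and attach it to proteins or nucleic acids, some as long chains and many as a single unit. Several of them are encoded by interferon-stimulated genes and act in antiviral defence, where their macrodomains read ADP-ribose and their catalytic domains write it. Parp9 carries macrodomains and works as a complex with Dtx3l, a ubiquitin ligase of the Deltex family, and this pair is known to take part in interferon signaling and in the repair of DNA breaks. Interferons act through receptors, JAK kinases and STAT factors. A complex with STAT2 and IRF9 binds the interferon-stimulated response element (ISRE), and STAT pairs bind the gamma-activated site (GAS).

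The libraries held 38792143 counts (shcircCsnk1g3) and 42709996 counts (shCTR), and 12941 genes reached 10 counts in either or both. The linear transcript of the targeted gene, Csnk1g3, had 2159 counts in shcircCsnk1g3 and 2411 in shCTR, a log2 fold change of -0.05 (-0.14 to 0.03). Trp53, the gene of p53, had 3841 and 4334 counts and Ccne1 893 and 963, and a count per gene does not show whether a transcript is intact. The circular form has no poly(A) tail and was not measured in these poly(A) libraries. Markers of mesenchymal cells such as Col1a1 (13678 and 15747 counts, silenced cells first) and Pdgfra (10344 and 13824 counts) were abundant. However, Thy1 was at 0 and 1 count and Eng at only 94 and 146 counts. Of 10 leukocyte markers, 7 had at most 3 counts in either library, and their summed level was 3.14 CPM (counts divided by the library size after trimmed-mean, TMM, scaling) in shcircCsnk1g3 and 4.73 CPM in shCTR, mostly from Cd68 (87 and 155 counts, a log2 fold change of -0.71, interval -1.12 to -0.34) and Cd74 (33 and 37 counts, -0.05, interval -0.78 to 0.66). Ptprc, the pan-leukocyte marker, was at 1 and 0 counts. The 5 endothelial markers summed to 19 and 29 counts, of which Cdh5 had 10 and 16 (-0.49, interval -1.87 to 0.66), and the 6 lung epithelial markers to 1 and 6 counts, with Sftpc, Scgb1a1 and Epcam at 0 in both. Yam1 (99090 and 29819 counts) and Gm42418 (60389 and 24337 counts), which overlap ribosomal RNA sequence, and Lars2 (20448 and 6360 counts) were higher in shcircCsnk1g3, with log2 fold changes of 1.84, 1.42 and 1.79. Left out of the library totals, with no other scaling, they gave the members log2 fold changes from 0.22 for Parp11 to 1.28 for Parp14, and any further part of them in the results was not tested. In bulk libraries, fewer cells with a transcript and less of it in each cell cannot be told apart.

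Promoter windows of 300 bases (250 before the RefSeq start and 50 from it, GRCm38.p6) were found for 3 of the 6 members, Dtx3l, Parp11 and Parp12. They are printed 5′ to 3′ on the strand of the gene because the members differed in size of change and these letters can be set beside that order. Capitals mark the ISRE core GAAANNGAAA and the GAS letters TTCNNNGAA, each searched on both strands.
Parp11, chr6:127446590-127446889, plus strand: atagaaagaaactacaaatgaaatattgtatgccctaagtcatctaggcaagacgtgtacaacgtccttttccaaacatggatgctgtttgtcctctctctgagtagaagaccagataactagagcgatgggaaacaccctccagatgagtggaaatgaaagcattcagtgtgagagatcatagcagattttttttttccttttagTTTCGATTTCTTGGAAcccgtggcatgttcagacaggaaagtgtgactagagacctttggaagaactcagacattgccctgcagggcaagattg
Dtx3l, chr16:35938978-35939277, minus strand: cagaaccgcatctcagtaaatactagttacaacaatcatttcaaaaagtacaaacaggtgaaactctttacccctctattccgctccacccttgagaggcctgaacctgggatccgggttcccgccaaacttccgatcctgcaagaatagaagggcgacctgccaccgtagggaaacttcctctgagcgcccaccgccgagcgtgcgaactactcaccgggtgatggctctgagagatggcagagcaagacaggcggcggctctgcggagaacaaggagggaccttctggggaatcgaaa
Parp12, chr6:39118300-39118599, minus strand: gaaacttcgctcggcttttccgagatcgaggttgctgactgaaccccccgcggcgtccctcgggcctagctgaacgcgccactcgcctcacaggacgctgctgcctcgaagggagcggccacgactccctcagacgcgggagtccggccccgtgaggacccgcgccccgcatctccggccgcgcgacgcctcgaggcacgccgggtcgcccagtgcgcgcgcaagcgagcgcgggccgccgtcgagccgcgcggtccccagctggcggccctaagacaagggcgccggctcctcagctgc
In the Parp11 window the ISRE core began 44 bases before the start and the GAS letters began 37 bases before it, and the motifs shared 3 bases. Over all 32851 promoter windows of the same length, 3.44% held the ISRE core and 8.3% held the GAS letters. Neither motif was found in the Dtx3l and Parp12 windows, nor in the window of a second Parp11 start (chr6:127453377-127453676), which says only that these letters are not within those 300 bases. Of these 3 members Parp11, with both motifs, had the smallest difference between the libraries, but its principal coding transcript begins at 127453723, outside both windows, and counts per gene do not separate its starts. The windows also differed in base composition, with 42.0% G and C in the printed Parp11 window, 54.3% in that of Dtx3l and 73.7% in that of Parp12.

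All 6 members were higher in the shcircCsnk1g3 library, and their summed counts were 4607 against 3012 in shCTR. All 6 had at least 10 counts in both libraries, so none passed the count minimum through 1 library alone. The intervals of 6 of 6 members lay above 0, where 26.9% of all 12941 genes tested had such an interval. Parp9, Parp12, Parp14 and Dtx3l were at least 1.5-fold higher, 4 of 6 members against 5.39% of all genes, and Parp14 and Dtx3l were at least 2-fold higher, 2 of 6 against 2.13%. The members were chosen with earlier results of these data known, so these shares are description only. The members are well counted, and among the 10662 genes whose summed count reached 200 the shares were 1.99% for a 1.5-fold higher level and 29.5% for an interval above 0. The median log2 fold change was 0.81 for the members and 0.00 for all genes tested.

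**Figure D1:**
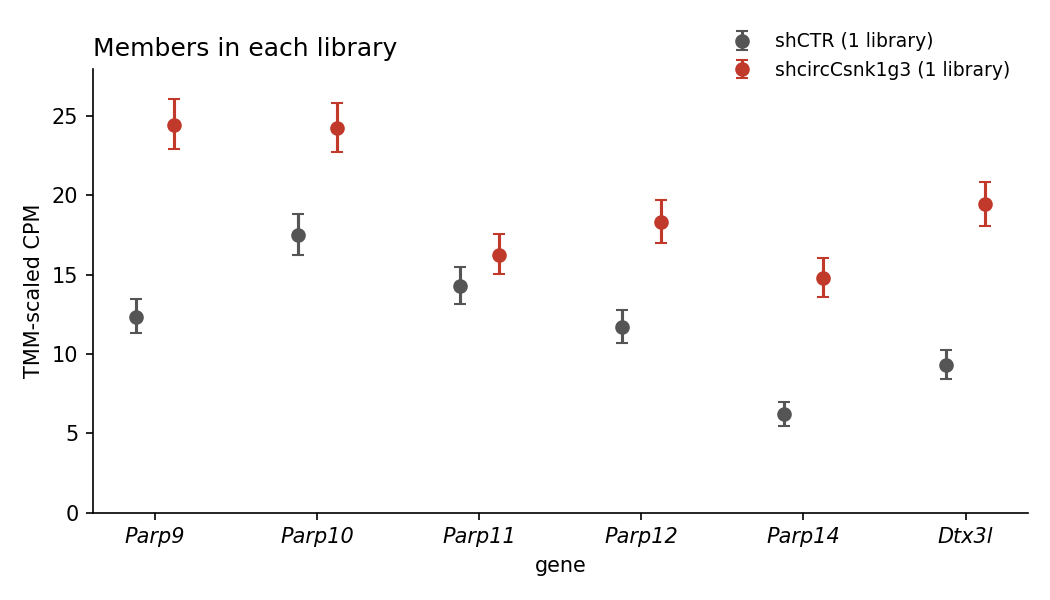
TMM-scaled CPM (vertical axis) of the 6 members in the shCTR (grey) and shcircCsnk1g3 (red) libraries, 1 library each. Bars are exact 95% Poisson intervals of the count, and only the bars of Parp11 (14.3 and 16.3 CPM) overlap between the libraries.

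Dtx3l (ENSMUSG00000049502) and Parp9 (ENSMUSG00000022906) lie head to head on chromosome 16 of GRCm38, Dtx3l on the minus strand from 35926511 to 35939151 and Parp9 on the plus strand from 35938470 to 35972605. Parp9 had 959 counts in shcircCsnk1g3 and 521 in shCTR, which is 24.5 and 12.3 CPM. The count of its partner Dtx3l was 762 in shcircCsnk1g3 and 393 in shCTR, or 19.4 and 9.30 CPM. The transcript levels of both partners were close to double in the silenced cells. The fold was 1.98 (1.78 to 2.21) for Parp9 and 2.08 (1.85 to 2.37) for Dtx3l, with log2 fold changes of 0.98 and 1.06 whose intervals overlapped. Because the counts of both genes differed alike, their proportion varied little. RNA counts do not give the make-up of the protein complex. Parp9 held 57.0% (53.7 to 60.2) of the counts of the pair in shCTR and 55.7% (53.3 to 58.1) in shcircCsnk1g3, a share that needs no scaling between libraries.

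The start regions of the pair overlap. Of 7 annotated Parp9 transcripts, 4 begin inside the Dtx3l promoter window printed above, on the other strand, and the longest coding transcript begins at 35938470, inside the Dtx3l gene. The exons of both genes share 458 bases on opposite strands. The library kit keeps the strand, but whether the counting used it is not given in the sources used here, and without it reads in these bases could fall to either gene. No 50-base window of a Parp9 transcript occurred in a transcript of another gene on the same strand, and 1.2% of the Dtx3l windows did.

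Parp14 (ENSMUSG00000034422), the longest member with 1817 residues in its principal protein and a coactivator of STAT6, lies 55.0 kb from Dtx3l on the same chromosome (16, 35832874 to 35871544, minus strand). It had 580 counts in shcircCsnk1g3 and 262 in shCTR, or 14.8 and 6.20 CPM. It thus had the largest point estimate of the fold among the 6. Its fold was 2.37 (2.06 to 2.77), a log2 fold change of 1.25 (1.04 to 1.47), which ranked 180 of 12941 genes and 38 of the 10662 with at least 200 summed counts. The interval overlapped those of Parp9 and Dtx3l, so these 3 neighbors could not be set in order. Together the 3 genes held 39.0% (37.3 to 40.8) of the counts of the 6 members in shCTR and 49.9% (48.5 to 51.4) in shcircCsnk1g3.

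Parp12 (ENSMUSG00000038507, chromosome 6, 39086410 to 39118349, minus strand) encodes a zinc finger protein that adds single ADP-ribose units and restrains viral replication. Its count was 718 in shcircCsnk1g3 and 494 in shCTR, or 18.3 and 11.7 CPM. The fold of 1.56 (1.39 to 1.76) was smaller than those of the chromosome 16 genes, and its interval on the log2 scale (0.48 to 0.82) did not reach theirs. Parp12 was the member just above the 1.5-fold threshold.

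Parp10 (ENSMUSG00000063268, chromosome 15, 76231174 to 76243441, minus strand), which was first described as a partner of Myc and also adds single ADP-ribose units, was the member just under that threshold. It had 950 counts in shcircCsnk1g3 and 739 in shCTR, or 24.2 and 17.5 CPM. The fold was 1.38 (1.26 to 1.53), with an interval that overlapped that of Parp12. The 3′ end of Parp10 runs into Plec, a cytoskeletal linker gene on the same strand. The exons share 205 bases and 3.59% of the 50-base windows of Parp10 transcripts also occur in Plec. Plec had 60254 counts in shcircCsnk1g3 and 72457 in shCTR, a log2 fold change of -0.16 (-0.17 to -0.14), and how much of the Parp10 count came from such shared bases was not tested.

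Parp11 (ENSMUSG00000037997, chromosome 6, 127446840 to 127494261, plus strand), whose product is the shortest of the 6 with 331 residues, had 638 counts in shcircCsnk1g3 and 603 in shCTR, or 16.3 and 14.3 CPM. These levels were nearly the same. The log2 fold change of 0.19 (0.03 to 0.35) ranked 2850 of 12941 genes, with 78.0% of all genes below it, whereas 92.4% were below Parp10 and 98.6% below Parp14. The share of Parp11 in the counts of the 6 members was 20.0% (18.6 to 21.5) in shCTR and 13.8% (12.9 to 14.9) in shcircCsnk1g3. Of the 15 pairs of members, 5 had overlapping intervals of the log2 fold change. They were the 3 pairs among Parp14, Dtx3l and Parp9, and Parp10 with Parp12 and with Parp11.

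**Figure D2:**
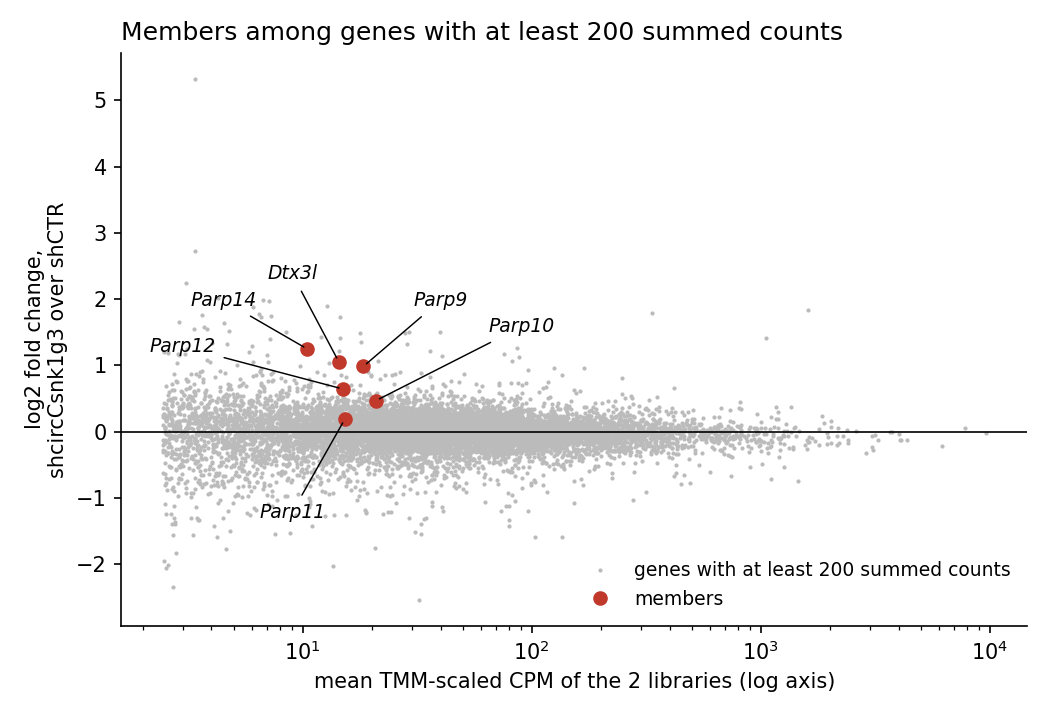
Log2 fold change of shcircCsnk1g3 over shCTR (vertical axis) against the mean TMM-scaled CPM of both libraries (horizontal log axis) for the 10662 genes with at least 200 summed counts (grey), with the 6 members in red. Parp14, Dtx3l and Parp9 lie at the upper edge of the cloud at log2 fold changes of 1.25, 1.06 and 0.98, and Parp11 lies inside it at 0.19.

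Levels of different members were compared as CPM per kb of annotated exon. In shCTR Parp10 was highest at 4.09 CPM per kb (3.80 to 4.40), followed by Parp12 at 2.93 (2.67 to 3.20), Parp9 at 2.53 (2.32 to 2.76), Parp11 at 2.03 (1.87 to 2.201), Dtx3l at 1.63 (1.47 to 1.79) and Parp14 at 0.67 (0.59 to 0.75). In that order only the neighbors Parp12 and Parp9 did not differ beyond their Poisson intervals. In shcircCsnk1g3 the levels were 5.67 CPM per kb for Parp10, 5.02 for Parp9, 4.58 for Parp12, 3.39 for Dtx3l, 2.32 for Parp11 and 1.59 for Parp14, and Parp9 and Dtx3l each stood 1 place higher in the order. There the intervals of Parp10 and Parp9 overlapped, as did those of Parp9 and Parp12. The place of Parp11 depended on the length used. With the longest transcript in place of all exons it was 3.81 CPM per kb in shCTR and 4.34 in shcircCsnk1g3, above Dtx3l in both. In shCTR it then stood above Parp12 at 3.62 and Parp9 at 3.48 by point value, with intervals that overlapped theirs.

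The other PARP genes had smaller differences. Among 16 PARP family genes, Parp14, Parp9, Parp12 and Parp10 took the first 4 places by log2 fold change. Zc3hav1 (4963 counts in shcircCsnk1g3 and 4581 in shCTR), the zinc finger antiviral protein that lacks catalytic activity, was at 0.22 (0.16 to 0.28), and Tiparp (7534 and 7070 counts), a target of the aryl hydrocarbon receptor, at 0.20 (0.15 to 0.25). Parp11 came after both. Parp1 (7595 and 7790 counts), the main DNA damage sensor of the family, was at 0.07 (0.03 to 0.12). Of the 11 PARP genes outside the member list, 9 were higher and 2 lower, none by 1.5-fold. Their median was 0.08, and the lowest was Tnks, a tankyrase, at -0.12. The other PARP genes were also more abundant, with a median of 11.3 CPM per kb in shCTR (1.45 to 38.4), where the 5 PARP members lay between 0.67 and 4.09. The 5 PARP members held 5.44% (5.23 to 5.64) of the 48184 counts of the family in shCTR and 7.98% (7.74 to 8.23) of its 48164 counts in shcircCsnk1g3, shares within each library that do not depend on its size.

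The other Deltex genes, the family of the ligase Dtx3l, lay below it. Dtx3 (1880 counts in shcircCsnk1g3 and 1843 in shCTR) was at a log2 fold change of 0.14 (0.04 to 0.23), and Dtx2 (802 and 917 counts) at -0.09 (-0.22 to 0.05). Dtx4 (127 and 196 counts) was lower, at -0.51 (-0.85 to -0.19), and Dtx1 was at 0 in both libraries. The median of the 3 tested was -0.09.

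**Figure D3:**
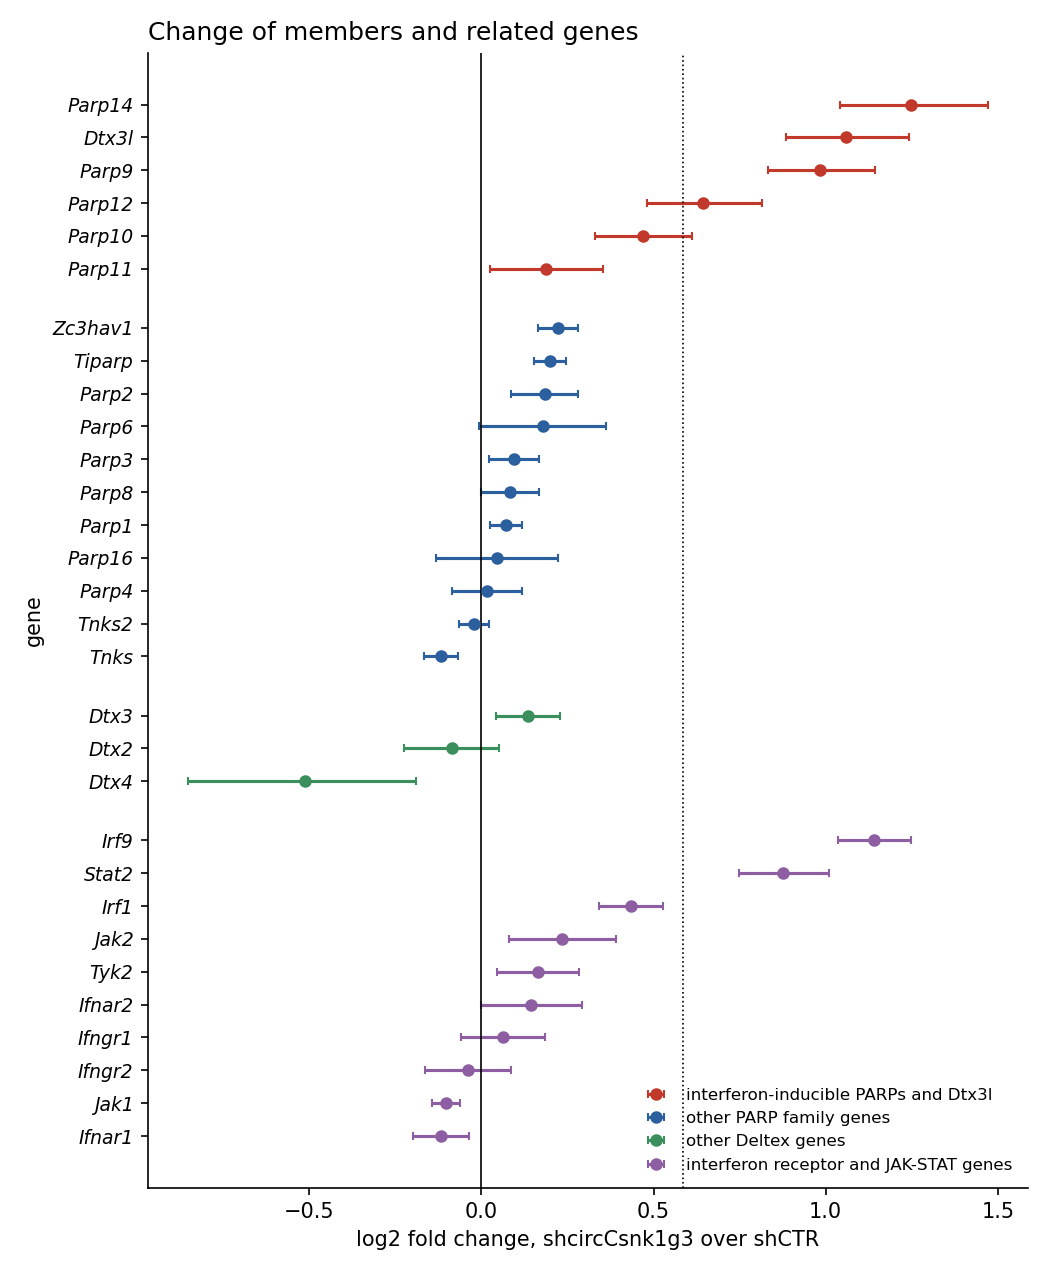
Log2 fold change of shcircCsnk1g3 over shCTR (horizontal axis) with exact 95% intervals for the members (red), the other PARP genes (blue), the Deltex genes with at least 10 counts (green) and interferon receptor and JAK-STAT genes (purple). The dotted line is a 1.5-fold higher level, which 4 members, Stat2 and Irf9 exceed and no other gene drawn does.

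Genes that carry the interferon signal were set beside the members, since the complex of Parp9 and Dtx3l is known to act in this pathway. Irf9, the DNA-binding subunit of the ISRE-binding complex, had 2196 counts in shcircCsnk1g3 and 1073 in shCTR, a log2 fold change of 1.14 (1.03 to 1.25). Stat2 had 1290 and 756 counts, a change of 0.88 (0.75 to 1.01). Irf1 had 2093 and 1669 counts, a change of 0.43 (0.34 to 0.53). These 3 factors were higher, and Irf9 and Stat2 lay within the span of the members from Parp10 to Parp14. The receptors and kinases lay closer to 0, from -0.12 for Ifnar1 to 0.24 for Jak2. Among the 10 genes of the list reported here, higher values were found for 7 and lower for 3, and the median was 0.15. A list of 19 other interferon-stimulated genes had a median of 1.29, with 19 of 19 higher and 16 of them at least 1.5-fold, and its range of 0.36 (Ifih1) to 2.10 (Ifit3b) reached above all 6 members. Beside these, the 15 housekeeping genes had a median of -0.09 (3 higher, 12 lower), from -0.37 for Gusb to 0.03 for Ywhaz. The 8 tested mesenchymal markers had one of -0.16 (2 higher, 6 lower), from -0.52 for Eng to 0.37 for Col3a1.

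The enzymes that remove ADP-ribose had values on both sides of 0. Among the 8 that were tested, higher values were found for 6 and lower for 2, and the median log2 fold change was 0.09. Adprhl2, which removes ADP-ribose from serine, was highest at 0.39 (0.26 to 0.52), with 1118 counts in shcircCsnk1g3 and 919 in shCTR. Parg, which degrades ADP-ribose chains, was at 0.21 (0.12 to 0.31) with 1993 and 1852 counts. At the other end Macrod2 (38 and 89 counts), a macrodomain hydrolase, was at -1.08 (-1.71 to -0.56), and Enpp1 (78 and 214 counts), a membrane pyrophosphatase, at -1.33 (-1.74 to -0.97).

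Genes of NAD metabolism were listed because NAD is the substrate of the PARPs. The list mixes genes that make NAD with genes that use NAD or nicotinamide, so its median does not measure supply. It included 9 that were tested, with values above 0 for 2 and below 0 for 7. Of all genes tested 26.9% had an interval above 0. The share with an interval below 0 was not computed, so a count below 0 has no background here. In this list the interval lay below 0 for 3 genes (Nmnat2, Nmnat3 and Nnmt), above 0 for none, and included 0 for the other 6. Among those 6 was Cd38 (22 and 40 counts), an ectoenzyme that consumes NAD, at -0.71 with an interval that reached 0.03. Nampt, the rate-limiting enzyme of the salvage pathway and the most abundant gene of the list, had 3740 counts in shcircCsnk1g3 and 4026 in shCTR and a log2 fold change of 0.00 (-0.06 to 0.07), next to Nadsyn1 (298 and 319 counts), the highest of the list, at 0.01 (-0.22 to 0.24). Nmnat2 (269 and 622 counts), a cytoplasmic enzyme of NAD synthesis, was at -1.10 (-1.31 to -0.89). Nnmt (37 and 123 counts), which methylates nicotinamide, was at -1.58 (-2.20 to -1.08). The median of the list was -0.33, and it was -0.18 among the genes whose summed count reached 200. The 6 tested partners of Parp1 in strand break repair were close to the median of all genes, from -0.14 for Polb to 0.18 for Xrcc1 (2 higher, 4 lower), and their median was -0.04.

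The neighbors of the members on the chromosome were compared as well, taking the nearest 3 tested genes on each side. Between Hspbap1 and Kpna1 on chromosome 16 the members Parp14, Dtx3l and Parp9 were the only genes tested. Hspbap1, 4.40 kb from Parp14, had 606 counts in shcircCsnk1g3 and 848 in shCTR and a log2 fold change of -0.38 (-0.53 to -0.23). Kpna1, 6.15 kb from Parp9, had 1889 and 1896 counts and a change of 0.10 (0.01 to 0.19). The 3 members thus stood between genes that were lower or nearly level. Over the 24 neighbors of all 6 members, excluding the members themselves, the median was -0.07. The intervals of 2 lay above 0, where 26.9% of all genes tested had such an interval. Those of 9 lay below 0, and the share of all genes below 0 was not computed, so this count has no background. The lowest was Ccnd2, a cyclin gene 294.6 kb from Parp11, with 3428 counts in shcircCsnk1g3 and 5790 in shCTR, a log2 fold change of -0.65 (-0.71 to -0.59). The 1 neighbor at a 1.5-fold higher value was Prmt8 beside Parp11, with 11 and 7 counts and an interval from -0.74 to 2.36. Its log2 fold change of 0.62 fell to 0.36 with a prior count of 10, under the 1.5-fold threshold of 0.585. Grina, 3.32 kb from Parp10, was at -0.15 (-0.22 to -0.08), and Kdm7a, 18.3 kb from Parp12, at 0.05 (-0.16 to 0.27).

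**Figure D4:**
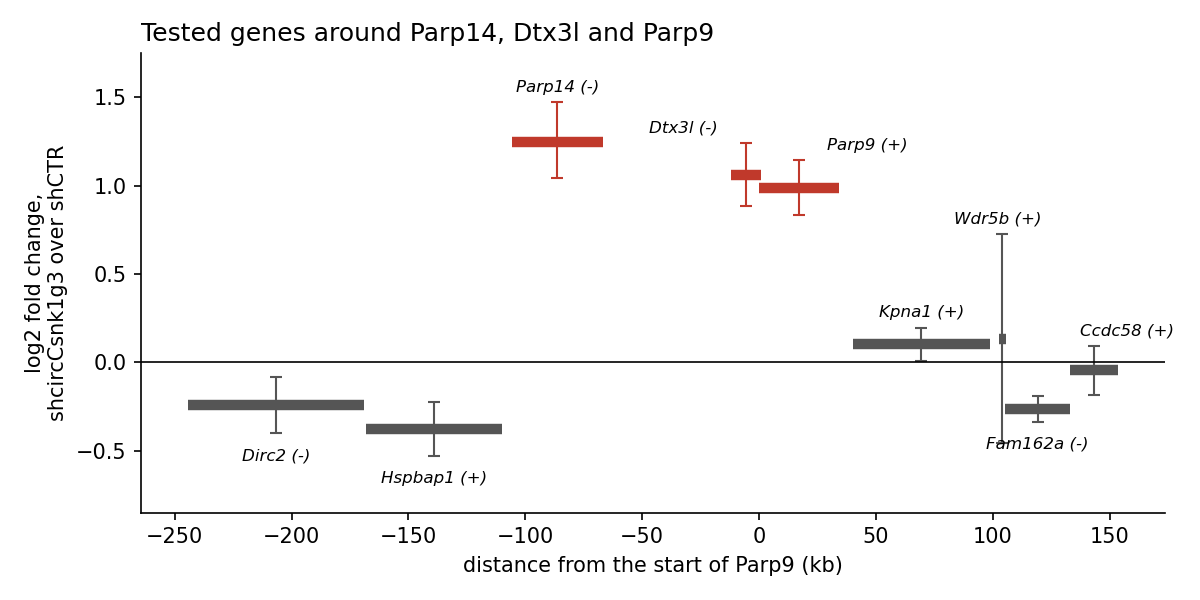
Log2 fold change of shcircCsnk1g3 over shCTR (vertical axis) with exact 95% intervals for the 9 tested genes in and around the stretch from Parp14 to Parp9, drawn at their distance from the start of Parp9 in kb (horizontal axis), with the strand in brackets. Thick bars span the gene, and the members (red) lie between 0.98 and 1.25 while the flanking genes (grey) lie between -0.38 and 0.13.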

How the data were processed

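Poly(A) RNA of sarcoma cells was sequenced from 2 stranded libraries. According to the labels and the article, the authors converted reads with bcl2fastq 2.20, aligned them to GRCm38 with STAR 2.6.1 and summarised genes with RSEM 1.2.28. The GENCODE release is not given in the sources used here. The deposited estimated counts are whole numbers per gene without normalization, and 92 spike-in rows, all 0, were left out. The authors also deposited TMM-scaled CPM for 11624 genes (edgeR 3.30), which equal the counts times 1 constant per library to within 2.09e-05 counts and hold all 6 members.

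TMM factors were computed with edgeR 4.0.16 (R 4.3.3) on genes that reached 10 counts in either or both. Log2 fold changes were taken from scaled CPM after adding a prior count of 2, which pulls low counts toward 0, and intervals are exact 95% Clopper-Pearson intervals in scipy 1.17.1. At 10, 100 and 1000 counts in each library their half-width was 1.42, 0.41 and 0.13 on the log2 scale. PCR duplicates could not be removed, and RSEM divides reads shared between genes. Positions, transcripts and lengths came from GENCODE M21 (GRCm38), which held 25251 of 25509 gene identifiers. All 6 members were named, and of the 12 other lists the genes past 1.5-fold with an interval excluding 0, those at the ends of a list and 6 set genes (Tiparp, Zc3hav1, Parp1, Stat2, Irf9, Irf1). A further gene of the interferon signaling list is not reported here. For the 19 interferon-stimulated genes only counts, the median and the ends are given. Other genes named, such as Parg, Dtx2, Nampt, Nmnat3, Cd38, Jak2, cell markers and chromosomal neighbors, were picked after their values were seen. Members and lists were chosen with earlier results of these data known. The computation was tested on simulated data.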

Additional observations from a re-analysis of the deposited data

How the results depend on the processing

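No paired analysis was possible because each condition had a single library, and for that reason no library could be left out. The members were recomputed with DESeq2 1.42.0 size factors, with total counts, with total counts leaving out 3 abundant transcripts that were much higher in shcircCsnk1g3 (Yam1, Gm42418 and Lars2), with the deposited TMM-scaled table, with prior counts of 0.5 and 10 and after subtracting the median of genes of like exon length. All 42 values stayed within their intervals and above 0, from 0.97 to 1.02 for Parp9, 1.04 to 1.09 for Dtx3l, 1.22 to 1.28 for Parp14, 0.64 to 0.68 for Parp12, 0.46 to 0.50 for Parp10 and 0.17 to 0.22 for Parp11. The median of all genes moved by at most 0.04. The 4 members at least 1.5-fold higher became 2 at a 2-fold threshold, stricter by construction, and stayed 4 under the other settings, count minimums included. Of 100 list medians, 95 moved by less than the typical interval of their genes and kept their sign. The interferon-stimulated list went from 1.29 to 0.91 with a prior count of 10, which shrinks low counts by construction. The housekeeping median went from -0.09 to -0.06 with total counts (-0.0614) and without the 3 transcripts (-0.0568), and the mesenchymal median from -0.16 to -0.12 without them and to -0.22 with no count filter. The medians of small lists also moved over 1.5 times within the intervals of their genes. That of NAD metabolism went from -0.33 to -0.18 at 200 summed counts, where fewer genes were tested. With total counts, and without the 3 transcripts, the repair partners went from -0.04 to -0.0113 and -0.0066, and the Deltex genes from -0.09 to -0.0544 and -0.0497. Depth limited the weakly expressed genes, such as Prmt8, whose ratio 11 and 7 counts do not settle in direction.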
